A study of Homo sapiens with 12 samples.

Results

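The 49 genes described here encode proteins that transcribe, process and assemble ribosomal RNA. They were listed by name as factors of ribosome biogenesis, with earlier results of these data known, and no measured value enters the rule. All 49 were found by gene name among the 78932 genes of the kava table and the 35697 genes of the siRNA table. Ribosomes are made in the nucleolus, where RNA polymerase I transcribes a long precursor RNA. The UTP-A, UTP-B and MPP10 complexes and the U3 small nucleolar ribonucleoprotein (snoRNP) join this precursor and form the small-subunit processome, in which the RNA of the small ribosomal subunit is folded and cut. Box C/D and box H/ACA snoRNPs guide the methylation and pseudouridylation of ribosomal RNA, further factors carry the large subunit, and late factors finish the small subunit in the cytoplasm. Output of this pathway is known to follow growth signals, and many of its genes are textbook targets of the transcription factor MYC.

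Polyadenylated RNA was sequenced from 12 libraries of BEAS-2B, a human bronchial epithelial line that was immortalised in culture, and every group had been kept for 20 weeks in 0.25 µM K2Cr2O7, a source of hexavalent chromium. The 4 groups of 3 libraries were vehicle (0.05% DMSO), kava (25 µg/ml, a plant extract), and vehicle cells taken 48 h after transfection with 100 nM of control siRNA or of SNRPA1 siRNA. SNRPA1 is a protein of the U2 spliceosomal particle. Chromium-free cells are not among these groups, so each comparison was made in chromium-exposed cells of a single line. Whether the replicates came from separate cultures is not stated, so the p-values measure the spread between these libraries, which may be technical.

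SNRPA1 itself was at 67.5, 58.8 and 60.1 CPM (counts over the TMM-scaled library total) with control siRNA and at 21.3, 20.9 and 23.7 CPM with SNRPA1 siRNA (log2 fold change -1.50 ± 0.098 SE, adjusted p = 0.00495, edgeR's quasi-likelihood test). The siRNA libraries held between 55003534 and 65385258 counts, and depth cannot be read from the kava table, which gives TPM, abundances scaled by transcript length to a fixed total per library. Of 12 genes listed as markers of a bronchial epithelial line, 3 were under 1 TPM in all kava and vehicle libraries, CDH1 among them, while KRT8 averaged 583 TPM with vehicle. With kava 3 of the 12 were higher and 4 lower, among them KRT7 (192 to 406 TPM), ITGA6 (21.2 to 44.1 TPM), KRT17 (57.4 to 35.4 TPM) and KRT19 (23.5 to 0.705 TPM), and their summed level went from 3071 to 3199 TPM in vehicle libraries to 3252 to 3516 TPM in kava libraries. Of 9 fibroblast markers 5 were under 1 TPM throughout, while COL1A2 averaged 0.101 TPM with vehicle and 8.54 TPM with kava, and the summed level was 479 to 513 TPM against 502 to 529 TPM. Of 8 blood cell markers, 6 were under 1 TPM in those libraries, and HBB was at 0. The summed level of those 8 was 19.5 to 22.2 TPM with vehicle and 31.7 to 34.5 TPM with kava, of which CD68 was the called gene, and the part of these marker changes in the results was not tested. Control siRNA replicate 1 stood apart. Its correlation with the other control siRNA libraries over all tested genes was 0.973 and 0.979, against 0.992 between those others, and it was the most deviant control library in 40 of the 49 genes. The calls on SNRPA1 siRNA are therefore given with and without it.

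One sequence feature that the choice of genes did not use was more frequent in their promoters than in all promoters together, though most members lacked it. The hexamer CACGTG, a palindrome known as the canonical E-box that MYC and MAX bind, was searched from 250 bases before to 50 bases after each start in the RefSeq promoter sequences (GRCh38.p14). It was present in 17 of the 41 members that had a sequence there (41.5%). Over all RefSeq promoters the share was 8.77% (2396 of 27305), and over promoters of genes tested with kava it was 12.6% (1284 of 10224). It was found in 10 of 21 members that were lower with kava and in 7 of 19 that were not called, and not in the window of UTP15, which was higher. A match in this window is a description of the sequence and not a measured binding site. Of the 10 members that held it and were lower with kava, 8 had it begin within 20 bases of the transcription start, as did 3 of the 7 that held it and were not called (IMP4, PWP2 and PES1). The difference depends on that limit. Among the not-called members it began at base 29 in BYSL, 32 in GAR1, 36 in NOP2 and 42 in WDR46. Of the lower members outside the limit, LTV1 had it at base 29 and UTP14A at -241. The 8 lower members within 20 bases are shown as 30 bases on the strand of the gene, with the hexamer in capitals. The 3 not-called members within that limit are not shown, so the list cannot compare lower with not-called members.
WDR43 (chr2:28894658-28894687, plus strand): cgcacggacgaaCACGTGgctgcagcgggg
RRP9 (chr3:51941892-51941921, minus strand): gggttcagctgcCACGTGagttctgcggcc
NOP14 (chr4:2963374-2963403, minus strand): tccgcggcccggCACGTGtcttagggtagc
UTP20 (chr12:101280083-101280112, plus strand): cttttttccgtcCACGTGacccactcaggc
NOP10 (chr15:34343130-34343159, minus strand): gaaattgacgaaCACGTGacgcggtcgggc
UTP4 (chr16:69132621-69132650, plus strand): agagcgcgcgcgCACGTGgggccggggcgg
UTP18 (chr17:51260538-51260567, plus strand): gcagcgaggttcCACGTGagcgcctgcgtt
FBL (chr19:39846356-39846385, minus strand): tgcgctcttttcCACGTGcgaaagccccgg

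The levels of the members differed widely. In vehicle cells NPM1, which encodes the nucleolar chaperone nucleophosmin, averaged 2208 TPM. NCL (nucleolin) followed at 836 TPM, NOP56 at 583 TPM, FBL (the methyltransferase fibrillarin) at 485 TPM and NOP10, a small protein of the H/ACA particle, at 394 TPM. UTP15 had the lowest level of the 49, 12.1 TPM, and 38 of the 49 lay between 10 and 110 TPM. NPM1, NCL, NOP56 and FBL together held 54.0% to 54.7% of the summed TPM of the members in vehicle libraries, and 32.7% to 34.4% of their summed FPKM in the siRNA libraries. The order of levels was similar in the siRNA experiment, where the levels were scaled by length as FPKM (Spearman rho 0.79 between vehicle TPM and control siRNA FPKM over 49 genes, given as a description).

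With kava, 25 of the 49 genes were lower than with vehicle, 1 was higher and 23 were not called. Calls are those with an adjusted p under 0.05 in limma's test on log2(TPM + 1), and 13866 genes whose level averaged 1 TPM or more were tested. All 49 members passed that filter. Of all genes tested, 15.6% were called lower and 16.3% higher, against 51% and 2.04% of the members. The median log2 fold change was -0.17 over the members and -0.01 over all genes tested, and 40 of the 49 were fitted below 0. The changes were small in size: apart from UTP15, no member moved by more than 0.41 on the log2 scale. Values in the 3 kava libraries all lay below the 3 vehicle values for 29 members, and for 24.6% of all genes tested. The summed TPM of the 49 genes was 7471 to 7617 in the vehicle libraries and 6538 to 6853 in the kava libraries, and the ranges did not overlap. In bulk RNA, fewer cells with these transcripts and less of them per cell cannot be told apart. The count of 25 fell to 15 without vehicle replicate 1 and to 15 without kava replicate 2, in which 1400 and 1529 of all genes were called lower in place of 2168. It was 16 when genes of low level were kept in the test, where 1620 genes were called lower, and the members' median stayed between -0.18 and -0.16 in every setting tried.

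**Figure D1:**
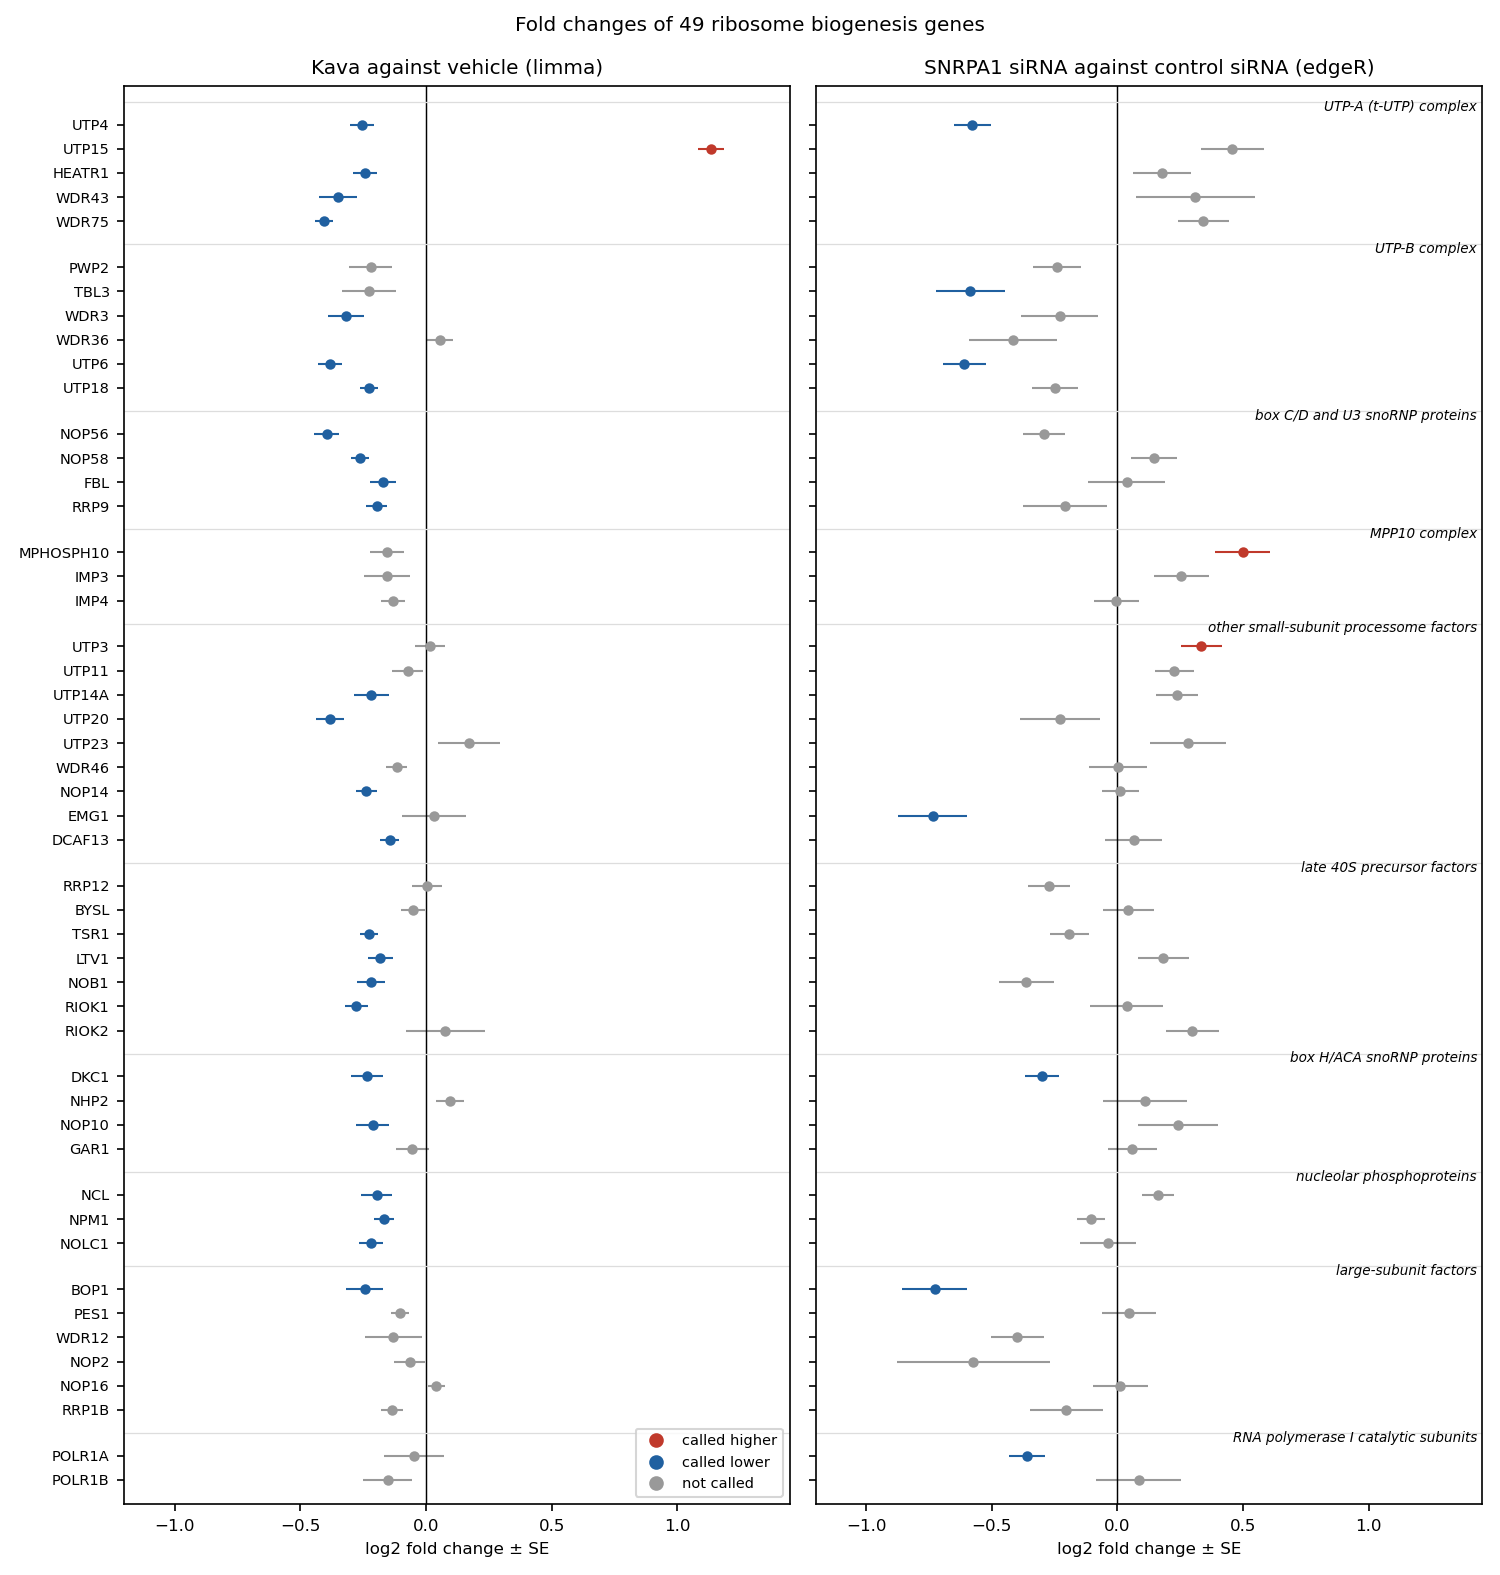
Log2 fold change ± SE of each of the 49 genes (x axes), with kava on the left (limma) and with SNRPA1 siRNA on the right (edgeR), grouped by role on the y axis and coloured by call. With kava, 25 genes are called lower and UTP15 alone is called higher; with SNRPA1 siRNA, 7 are lower and 2 higher.

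UTP-A is the complex that binds the start of the precursor and is also linked to transcription by RNA polymerase I. Its subunits among the members were split. Of these 5, which need not be the whole complex, 4 fell and UTP15 rose. UTP15 was at 12.2, 12.1 and 11.9 TPM with vehicle and at 26.3, 28.5 and 28.5 TPM with kava, a ratio of 2.30 (log2 fold change 1.13 ± 0.051 SE, adjusted p = 1.15e-05). It was called higher in all 12 alternative settings, with log2 fold changes of 0.92 to 1.19. WDR75, the human counterpart of yeast UTP17, was at 63.4, 63.9 and 62.8 TPM with vehicle and at 48.4, 47.5 and 46.9 TPM with kava (log2 fold change -0.41 ± 0.036 SE, adjusted p = 0.00021). WDR43, the counterpart of yeast UTP5, was at 81.1, 77.9 and 79.4 TPM against 54.7, 64.4 and 67.9 TPM (log2 fold change -0.35 ± 0.076 SE, adjusted p = 0.0117). For both genes every kava library lay below every vehicle library, and the kava values of WDR43 were spread more widely than its vehicle values. UTP4, also named cirhin, was at 85.8, 91.7 and 85.6 TPM against 75.7, 75.0 and 69.6 TPM (log2 fold change -0.25 ± 0.049 SE, adjusted p = 0.00693). HEATR1, a long helical-repeat protein, was at 34.3, 32.5 and 33.8 TPM against 27.0, 29.4 and 28.1 TPM (log2 fold change -0.24 ± 0.048 SE, adjusted p = 0.00812). The 4 falling subunits kept 0.751 to 0.841 of their vehicle level.

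Of the 6 subunits of UTP-B, a complex that follows UTP-A onto the precursor, 3 fell and 3 did not pass the test. UTP6 was at 105, 103 and 113 TPM with vehicle and at 79.5, 82.0 and 83.8 TPM with kava (log2 fold change -0.38 ± 0.047 SE, adjusted p = 0.000998). WDR3 was at 37.8, 33.1 and 37.5 TPM against 26.6, 30.9 and 28.9 TPM (log2 fold change -0.32 ± 0.073 SE, adjusted p = 0.0146). Neither pair of groups overlapped, but the call of WDR3 was lost without vehicle replicate 1 (adjusted p = 0.0569) and without vehicle replicate 3 (adjusted p = 0.0547). UTP18 also fell (log2 fold change -0.22), whereas PWP2, TBL3 and WDR36 had fold changes of -0.22, -0.23 and 0.06 and overlapping groups.

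All 4 members of the box C/D and U3 snoRNP group fell. NOP56, a core protein that holds box C/D particles together, was at 597, 569 and 583 TPM with vehicle and at 418, 442 and 471 TPM with kava (log2 fold change -0.40 ± 0.048 SE, adjusted p = 0.000945). Its partner NOP58 was at 154, 150 and 157 TPM against 125, 128 and 132 TPM (log2 fold change -0.26 ± 0.037 SE, adjusted p = 0.0019). Both were clear of the vehicle range in every kava library and were called in all 12 alternative settings. RRP9, the protein that is specific to the U3 particle, changed by -0.20 and FBL by -0.17. The call of FBL was lost in 8 of 12 settings, among them those without vehicle replicate 1, vehicle replicate 2, kava replicate 2 or kava replicate 3. In the H/ACA group, which makes pseudouridine, 2 of 4 fell: the enzyme DKC1 (dyskerin) changed by -0.24 (call lost in 5 of 12 settings) and NOP10 by -0.21. NOP10 was at 388, 412 and 383 TPM with vehicle and at 373, 338 and 313 TPM with kava. These values did not overlap, but the call (adjusted p = 0.0441) was lost when any library other than kava replicate 1 was left out, with adjusted p-values of 0.0767 to 0.135. NHP2 and GAR1, the other H/ACA proteins, had fold changes of 0.10 and -0.05 and overlapping groups.

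Several of the members also house other genes of the pathway. By GENCODE 29 coordinates, 6 of the 49 genes carry small nucleolar RNA genes inside their bounds: 5 in NOP56, 4 in NOP58, 3 each in WDR43 and NCL, and 2 each in TSR1 and DKC1, 19 in all. All 6 host genes were lower with kava, as were 19 of the 43 members without such genes and 15.6% of all genes tested. Among the 6 hosts, the calls of NCL and DKC1 were lost in 10 and 5 of 12 alternative settings. Calls of members without such genes were lost in some settings too. Small nucleolar RNAs lack poly(A) tails and were not analysed here.

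Outside the UTP complexes, 4 of 9 other processome factors fell and 5 were not called. UTP20, a very long scaffold protein, was at 20.5, 19.0 and 19.7 TPM with vehicle and at 14.1, 15.4 and 15.3 TPM with kava (log2 fold change -0.38 ± 0.056 SE, adjusted p = 0.00216). NOP14, which binds the small-subunit precursor beside EMG1, was at 44.6, 44.4 and 42.2 TPM against 36.6, 36.2 and 37.9 TPM (log2 fold change -0.24 ± 0.043 SE, adjusted p = 0.00524). UTP14A and DCAF13 also fell, by 0.22 and 0.14 on the log2 scale, with calls that were lost in 7 and 5 of 12 settings. For UTP14A these included the fits without vehicle replicate 1 or 3 or kava replicate 1 or 2, and for DCAF13 those without vehicle replicate 2 or 3 or kava replicate 1 or 2. In the MPP10 complex 0 of 3 were called by limma, although 1 had an unadjusted p under 0.05 and all 3 were fitted below 0, at -0.16 to -0.13. IMP4, the member of that complex with the highest level, was at 91.3, 91.5 and 84.8 TPM with vehicle and at 82.1, 83.7 and 78.2 TPM with kava. Its groups did not overlap, yet the difference missed the threshold (log2 fold change -0.13 ± 0.046 SE, adjusted p = 0.068).

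Late factors of the small subunit gave 4 lower of 7. RIOK1, an atypical kinase of the last cytoplasmic steps, was at 21.6, 21.4 and 21.0 TPM with vehicle and at 17.0, 17.3 and 18.1 TPM with kava (log2 fold change -0.28 ± 0.047 SE, adjusted p = 0.00391). TSR1, NOB1 (the endonuclease that makes the mature end of the small-subunit RNA) and LTV1 fell by 0.23, 0.22 and 0.18 on the log2 scale. The call of TSR1 was kept in all 12 alternative settings, that of NOB1 was lost in 4 (without vehicle replicate 1 or 2 or kava replicate 2 among them) and that of LTV1 in 6 (without vehicle replicate 1 or 3 or kava replicate 1 or 2 among them). RRP12, BYSL and the kinase RIOK2 did not pass the test, and their groups overlapped.

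All 3 nucleolar phosphoproteins fell, by at most 0.22 on the log2 scale. NPM1 was at 2200, 2159 and 2266 TPM with vehicle and at 1898, 1958 and 2044 TPM with kava, a ratio of 0.891 (log2 fold change -0.17 ± 0.040 SE, adjusted p = 0.0162). NOLC1 changed by -0.22 and NCL by -0.20. NCL (adjusted p = 0.0495) had the least stable call of the 25: it was lost in 10 of 12 settings, including each fit without 1 library except that without kava replicate 3. The groups of NPM1 did not overlap, but its call was lost without vehicle replicate 1, vehicle replicate 3 or kava replicate 2 (adjusted p = 0.0562, 0.0626 and 0.0578). NPM1 is also a gene with many processed pseudogenes, 45 by GENCODE name, and reads could be split among them.

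Of the 6 large-subunit factors 1 was called lower. BOP1, which forms a trimer with PES1 and WDR12, was at 97.7, 101 and 91.9 TPM with vehicle and at 89.2, 82.7 and 73.4 TPM with kava (log2 fold change -0.24 ± 0.073 SE, adjusted p = 0.0395). Every kava value lay below every vehicle value. The call was lost when any library other than kava replicate 1 was left out, with adjusted p-values of 0.0551 to 0.12. PES1 and RRP1B had groups that did not overlap and missed the threshold (log2 fold changes -0.10 and -0.14, adjusted p = 0.0606 and 0.053). Neither catalytic subunit of RNA polymerase I was called by limma, and 0 of 2 had an unadjusted p under 0.05. POLR1A, the largest subunit, was at 41.7, 34.5 and 39.3 TPM with vehicle and at 31.2, 37.7 and 43.3 TPM with kava, so that the groups overlapped throughout (log2 fold change -0.05 ± 0.12 SE, adjusted p = 0.792).

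**Figure D2:**
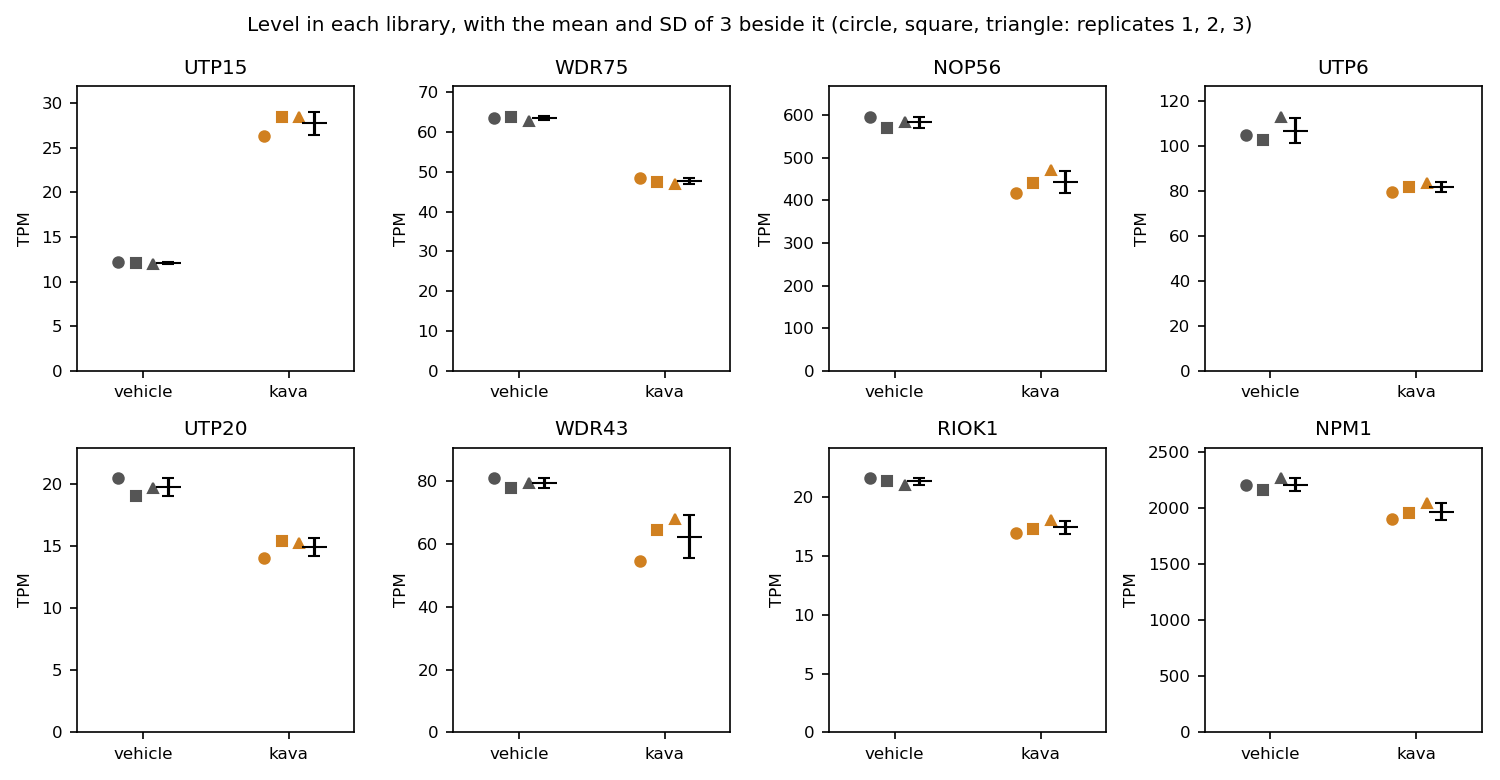
TPM of 8 genes in each vehicle and kava library (y axes start at 0; circle, square and triangle are replicates 1, 2 and 3; the cross and bar are the mean and SD of 3). UTP15 lies at 11.9 to 12.2 TPM with vehicle and at 26.3 to 28.5 TPM with kava, and the other 7 genes are lower in every kava library.

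Further genes of the pathway were also called lower more often than higher. Of 131 further genes listed with the pathway, 10 of them MYC network transcription factors, 130 could be tested (MYCN was at 0 TPM). Of these, 45 were lower (34.6%), 6 higher (4.62%) and 79 not called, with a median of -0.11. Of all genes tested, 15.6% were lower and 16.3% higher. RNA polymerase I had 6 of 14 further subunits and initiation factors lower and 1 higher. Among them RRN3, which readies the polymerase for initiation, averaged 38.0 TPM with vehicle and 30.2 TPM with kava (log2 fold change -0.32), POLR1F changed by -0.26 and TAF1D by 0.33. Small-subunit factors gave 10 lower of 33 and 0 higher (1 higher at an unadjusted p under 0.05), led by FCF1 (-0.52), the helicase DDX21 (-0.36) and ESF1 (-0.31). Large-subunit factors gave 19 lower and 2 higher of 51, with DDX24 at -0.46, NOC3L at -0.36 and NSA2 at 0.41. FCF1 and DDX24 lie on chromosome 14, where 55% of 453 tested genes were lower with a median of -0.28, and NSA2 lies on chromosome 5, whose median was 0.21. Relative to those medians FCF1 was at -0.25, DDX24 at -0.19 and NSA2 at 0.20. Of 9 snoRNP assembly factors 5 fell, among them the ATPase RUVBL1 (-0.32), NUFIP1 (-0.23) and RPAP3 (-0.20). The RNA exosome had 3 lower (21.4%) and 2 higher (14.3%) of 14. Among them EXOSC7 was at -0.28, MTREX at 0.23 (0.02 relative to the median of its chromosome, 5) and EXOSC6 at 0.19. In the MYC network 2 of 9 fell (22.2%) and 1 rose (11.1%). The shares of these last 2 lists lay near those over all genes tested. MYC was at 111, 113 and 111 TPM with vehicle and at 93.5, 89.7 and 95.3 TPM with kava (log2 fold change -0.27 ± 0.037 SE, adjusted p = 0.00163). MAX, the partner of MYC, changed by -0.25 and lies on chromosome 14, relative to whose median it was at 0.02. MXD3, which competes with MYC for MAX, went from a mean of 14.2 to 21.1 TPM (log2 fold change 0.53, adjusted p = 0.00439, and 0.32 relative to the median of chromosome 5, where it lies). Other genes of that list were fitted both ways, with MXD1 at 0.17, MNT at 0.10, MXD4 at -0.03 and MXI1 at -0.30. The part of MYC in the levels of the 49 genes was not tested. SNRPA1 was lower with kava too, at 153, 152 and 147 TPM against 124, 127 and 130 TPM (log2 fold change -0.24 ± 0.036 SE, adjusted p = 0.00227).

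UTP15 lies on chromosome 5, and most tested genes around it were also higher with kava. On chromosome 5 as a whole, 297 of 628 tested genes were called higher (47.3%) and 29 lower, with a median log2 fold change of 0.21. Within 5 Mb of UTP15 the count was 34 higher and 1 lower of 58. UTP15 (chr5:73565443-73583377, plus strand, hg38) overlaps the start of ANKRA2, which runs the opposite way, and ANKRA2 averaged 5.65 TPM with vehicle and 13.2 TPM with kava (log2 fold change 1.10, adjusted p = 0.000193). Further out, BTF3 changed by 0.38, FOXD1 by 0.43, ARHGEF28 by 0.47 and ENC1 by 0.75, whereas TNPO1 and TMEM171 were not called. Whether reads of UTP15 and ANKRA2 were told apart by strand is not given in the sources used here. The fold change of UTP15 was 0.92 above the median of its chromosome. The other 5 members on chromosome 5 were WDR36, RIOK2, NHP2, NPM1 and NOP16, of which only NPM1 fell and none of the rest was called. Their fold changes ran from -0.17 to 0.10, and all 5 lay below the chromosome's median. Off chromosome 5, 24 of 43 members were lower, with a median of -0.20. With each gene measured against the median of its own chromosome, 42 of the 49 members lay below it, and 23 were called lower.

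**Figure D3:**
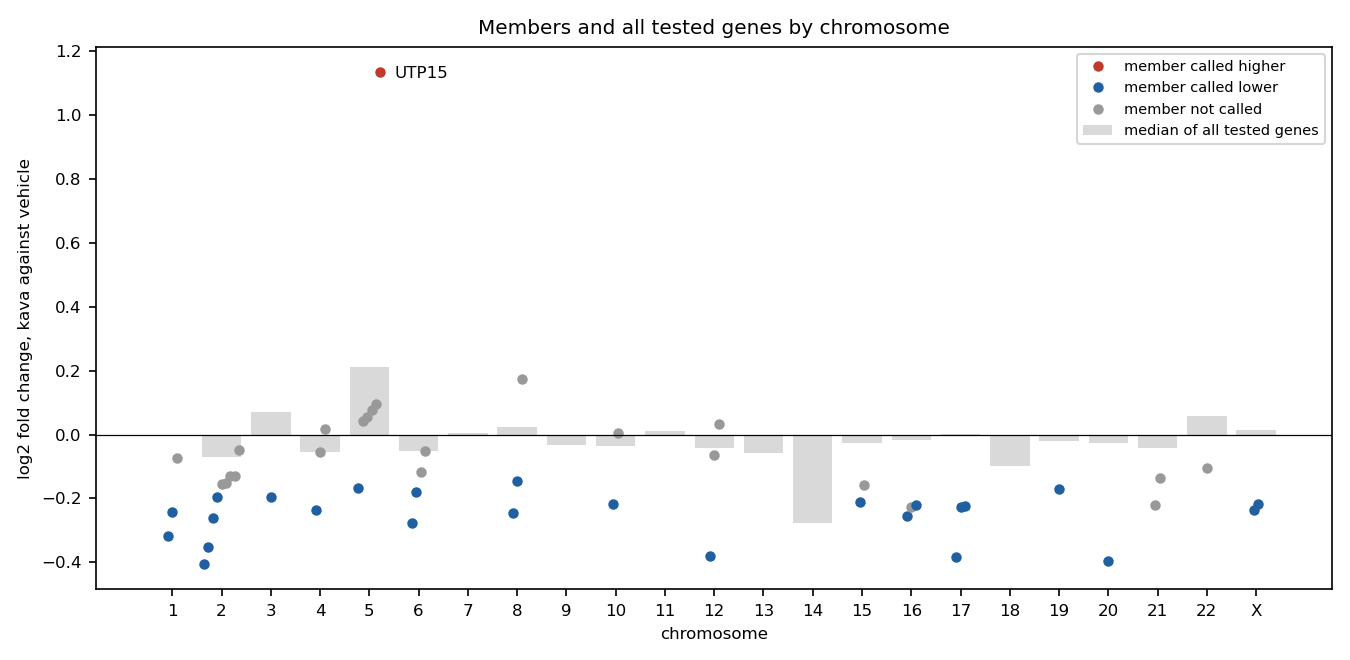
Log2 fold change with kava against vehicle (y axis) of each of the 49 genes (points, coloured by call) by chromosome (x axis), over the median of all tested genes of that chromosome (grey bars). Among the bars drawn, that of chromosome 5 is the highest, 0.21, and UTP15 stands 0.92 above it, while the members on most chromosomes lie below the bar.

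With SNRPA1 siRNA, the 49 genes went both ways and most were not called. Of the 49, 7 were lower, 2 higher and 40 not called (edgeR's quasi-likelihood test after TMM scaling; 13772 genes averaged 1 CPM or more and were tested). Of all genes tested, 7.29% were called lower and 4.89% higher, against 14.3% and 4.08% of the members. The median log2 fold change was 0.01 over the members and -0.00322 over all genes. Values did not overlap for 15 members that were lower and 8 that were higher, while 20.4% and 18.3% of all genes tested did so. When library totals replaced TMM scaling, 10 members were lower and 0 higher (4 higher at an unadjusted p under 0.05), and the calls over all genes went from 1004 lower and 673 higher to 1384 lower and 385 higher. DESeq2 called 11 members lower and 6 higher.

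The number of called members moved with single libraries. Without control siRNA replicate 1, 17 members were lower and 10 higher, with 16.9% and 16.2% of the 13729 genes then tested called lower and higher, and all 9 calls made with it were kept. Leaving out control siRNA replicate 3 or any SNRPA1 siRNA library instead gave 0 calls among the members by edgeR. In those fits 10 to 12 members were lower and 4 to 6 higher at an unadjusted p under 0.05. Calls were lost over all genes too: 9 were lower and 6 higher without control siRNA replicate 3. When any SNRPA1 siRNA library was left out, 0 genes were called either way. Without control siRNA replicate 2, 5 members and 684 of all genes were lower, and 1 member and 376 genes higher. The calls of DKC1, POLR1A and UTP3 were lost in that fit. The log2 fold changes of the 9 called members kept their sign in all these fits.

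Of the 5 UTP-A subunits among the members, 1 was called. UTP4 was at 103, 105 and 108 CPM with control siRNA and at 74.2, 69.5 and 67.8 CPM with SNRPA1 siRNA (log2 fold change -0.58 ± 0.074 SE, adjusted p = 0.0103), and the change was -0.59 without control siRNA replicate 1. The other 4 of these subunits were fitted above 0 and none was called with all libraries. UTP15 was at 10.6, 12.5 and 12.6 CPM against 17.8, 16.7 and 14.5 CPM, without overlap, and missed the threshold (log2 fold change 0.46 ± 0.13 SE, adjusted p = 0.058). Without control siRNA replicate 1, UTP15 and WDR75 were called higher (log2 fold changes 0.38 and 0.27, adjusted p = 0.0364 and 0.0276), while WDR43 and HEATR1 went from 0.31 and 0.18 to 0.07 each.

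All 6 UTP-B subunits were fitted below 0, and 2 were called. UTP6 was at 59.9, 64.9 and 60.1 CPM with control siRNA and at 42.0, 41.5 and 37.7 CPM with SNRPA1 siRNA (log2 fold change -0.61 ± 0.084 SE, adjusted p = 0.0119), or -0.63 without control siRNA replicate 1. TBL3, the human UTP13, was at 114, 82.4 and 87.7 CPM against 61.1, 59.8 and 68.8 CPM (log2 fold change -0.58 ± 0.14 SE, adjusted p = 0.0377). The control values of TBL3 were led by replicate 1, and without that library its log2 fold change was -0.43 (adjusted p = 0.00503). In the same fit WDR36, UTP18 and WDR3 were called lower as well, at -0.59, -0.31 and -0.37.

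Among the remaining processome factors, 3 were called with all libraries. EMG1, a methyltransferase of the small-subunit RNA, was at 98.0, 73.2 and 69.5 CPM with control siRNA and at 48.1, 49.8 and 46.7 CPM with SNRPA1 siRNA (log2 fold change -0.74 ± 0.14 SE, adjusted p = 0.0222). Without control siRNA replicate 1 the change was -0.57. MPHOSPH10, the scaffold of the MPP10 complex, was at 30.2, 39.1 and 34.2 CPM against 49.5, 48.4 and 48.4 CPM (log2 fold change 0.50 ± 0.11 SE, adjusted p = 0.0319). UTP3, the human counterpart of yeast Sas10, was at 36.0, 38.2 and 40.1 CPM against 48.3, 49.2 and 46.5 CPM (log2 fold change 0.33 ± 0.082 SE, adjusted p = 0.0428). Both were above the control range in every SNRPA1 siRNA library, and without control siRNA replicate 1 they changed by 0.41 and 0.29. In that fit edgeR also called IMP3 (0.37, adjusted p = 0.00434), UTP11 (0.26, adjusted p = 0.0124) and UTP14A (0.20, adjusted p = 0.045) higher. UTP20 was called lower there (-0.38, adjusted p = 0.0229).

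BOP1 was at 275, 197 and 210 CPM with control siRNA and at 134, 138 and 140 CPM with SNRPA1 siRNA (log2 fold change -0.73 ± 0.13 SE, adjusted p = 0.02). Its partners in the trimer did not pass the test with all libraries: WDR12 was at -0.40 (adjusted p = 0.0502) and PES1 at 0.05. Without control siRNA replicate 1, edgeR called WDR12 lower (-0.47, adjusted p = 0.00343) and PES1 was not called (0.16, adjusted p = 0.0506). RRP1B, another large-subunit factor, was also called lower in that fit (-0.35, adjusted p = 0.0126). DKC1 was at 192, 204 and 194 CPM against 161, 161 and 158 CPM (log2 fold change -0.30 ± 0.067 SE, adjusted p = 0.0331). POLR1A was at 96.1, 104 and 103 CPM against 77.9, 78.9 and 79.6 CPM (log2 fold change -0.36 ± 0.072 SE, adjusted p = 0.0256). The SNRPA1 siRNA values of BOP1, DKC1 and POLR1A lay below every control value. Without control siRNA replicate 1 the changes of these 3 genes were -0.57, -0.32 and -0.40. NOP2, which methylates large-subunit RNA, varied most among the SNRPA1 siRNA libraries, at 49.9, 90.7 and 35.9 CPM against 94.5, 84.4 and 83.7 CPM with control siRNA, and was not called (adjusted p = 0.251).

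**Figure D4:**
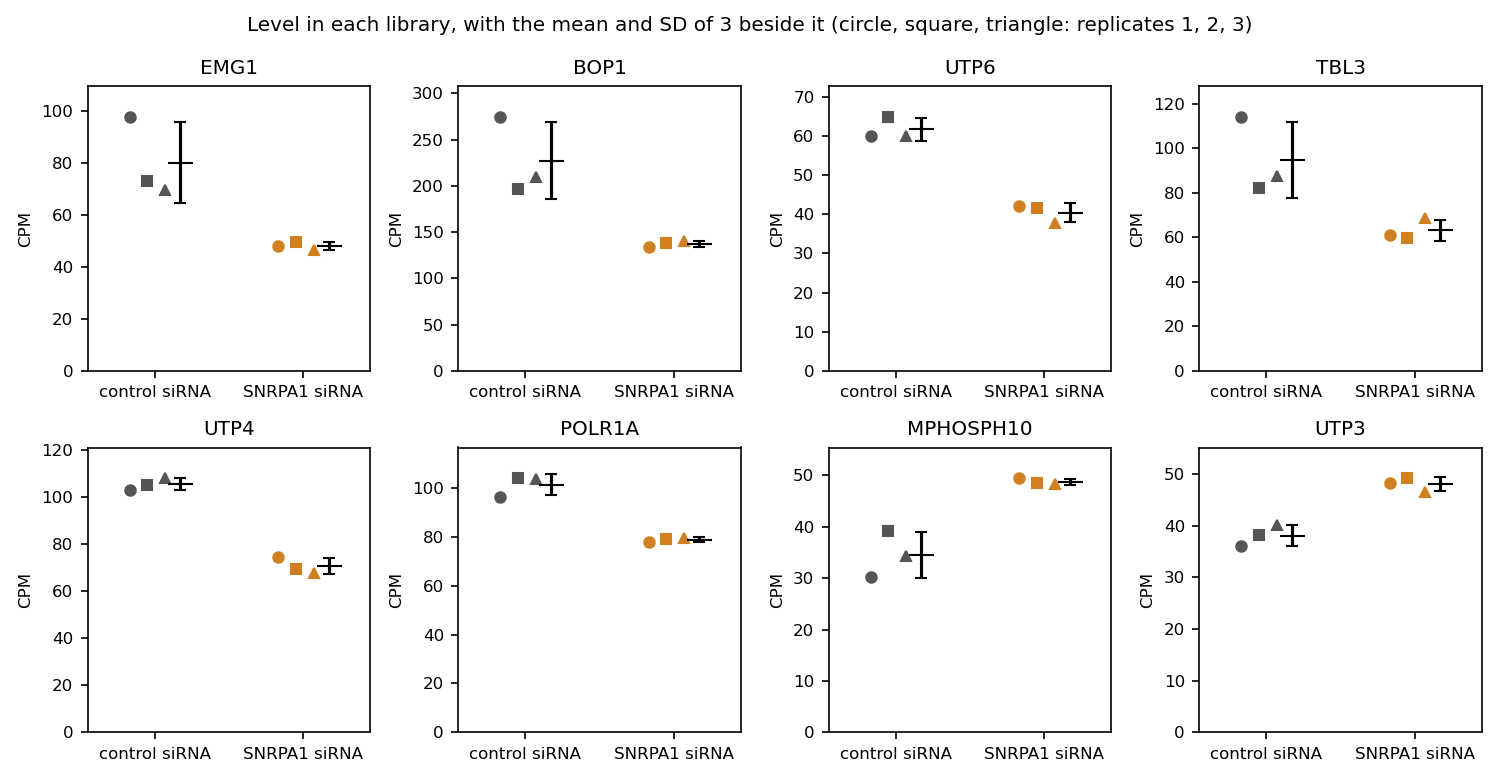
CPM of 8 genes in each control siRNA and SNRPA1 siRNA library (y axes start at 0; circle, square and triangle are replicates 1, 2 and 3; the cross and bar are the mean and SD of 3). EMG1, BOP1 and TBL3 are highest in control siRNA replicate 1, and none of the 8 genes has overlapping groups.

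Of the 3 role groups in which edgeR made 0 calls, the box C/D group had 1 member lower, the late small-subunit group 3 lower and 1 higher, and the phosphoproteins 1 higher at an unadjusted p under 0.05. DESeq2 called 1 lower in the first, 2 lower and 1 higher in the next, and 0 in the last. NOP56 was at 386, 330 and 330 CPM with control siRNA and at 280, 287 and 286 CPM with SNRPA1 siRNA, without overlap (log2 fold change -0.29 ± 0.083 SE, adjusted p = 0.0616). TSR1 was at 111, 122 and 123 CPM against 106, 107 and 99.4 CPM (log2 fold change -0.19 ± 0.078 SE, adjusted p = 0.147). NPM1 was at 1042, 1040 and 1015 CPM against 987, 958 and 936 CPM (log2 fold change -0.10 ± 0.056 SE, adjusted p = 0.256). All 3 lay lower in every SNRPA1 siRNA library, and NOP56 and TSR1 were called lower without control siRNA replicate 1 (adjusted p = 0.00968 and 0.0148). In the same fit FBL of the box C/D group was called higher (0.24, adjusted p = 0.0156), as were NOP10 (0.45) and NHP2 (0.33) of the H/ACA group, while RRP12 and NOB1 were called lower (-0.25 and -0.24).

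Over the 130 further genes tested, the MYC network among them, 12 were higher (9.23%) and 7 lower (5.38%) with SNRPA1 siRNA, with a median of 0.09. Of all genes tested, 4.89% were higher and 7.29% lower. Large-subunit factors gave 8 higher and 2 lower of 51, led by GNL2 (0.55), LSG1 (0.54) and NSA2 (0.49). Small-subunit factors gave 3 higher and 4 lower of 33, among them DDX47 (0.63), the methyltransferase BUD23 (-0.63) and RRP8 (-0.52). TCOF1, the nucleolar protein treacle, was higher (0.29) and the exosome subunit EXOSC8 lower (-0.47). In the snoRNP assembly and MYC network lists edgeR called 0 of 9 each, with 2 higher and 2 lower, and 2 higher and 1 lower, at an unadjusted p under 0.05, and DESeq2 called 3 and 2. Without control siRNA replicate 1, 34 of the 130 were higher and 22 lower, with a median of 0.08, and large-subunit factors gave 16 higher and 11 lower. In that fit 16.2% of all genes tested were higher and 16.9% lower. The 8 genes named here were called the same way in that fit.

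Set side by side, UTP4, UTP6, DKC1 and BOP1 were called lower in both comparisons. The kava calls of BOP1 and DKC1 were lost in 8 and 5 of 12 alternative settings, and those of UTP4 and UTP6 were kept in all 12. The SNRPA1 siRNA calls were lost in 5 of 12 settings for UTP4, UTP6 and BOP1 and in 7 for DKC1. UTP4 changed by -0.25 with kava and -0.58 with SNRPA1 siRNA, UTP6 by -0.38 and -0.61, DKC1 by -0.24 and -0.30, and BOP1 by -0.24 and -0.73. These 4 are 16% of the 25 genes lower with kava and 57.1% of the 7 lower with SNRPA1 siRNA, where 14.3% and 51% of all 49 were lower with SNRPA1 siRNA and with kava. With all libraries kept, 0 members were called in opposite directions, 18 were called in neither, and 26 of the 49 were fitted with the same sign. Over the 49 genes the correlation of the fold changes was 0.27 (Pearson) and 0.19 (Spearman), given as a description. Without control siRNA replicate 1 the picture differed: 10 members were lower in both, and 4 that were lower with kava were higher with SNRPA1 siRNA (WDR75, FBL, UTP14A and NOP10). In that fit UTP15 was higher in both, 11 members were called in neither, 28 had the same sign, and the correlations were 0.28 and 0.30. The comparisons share no library. The level of SNRPA1 with kava was 0.845 of that with vehicle, and with SNRPA1 siRNA it was 0.354 of that with control siRNA.

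**Figure D5:**
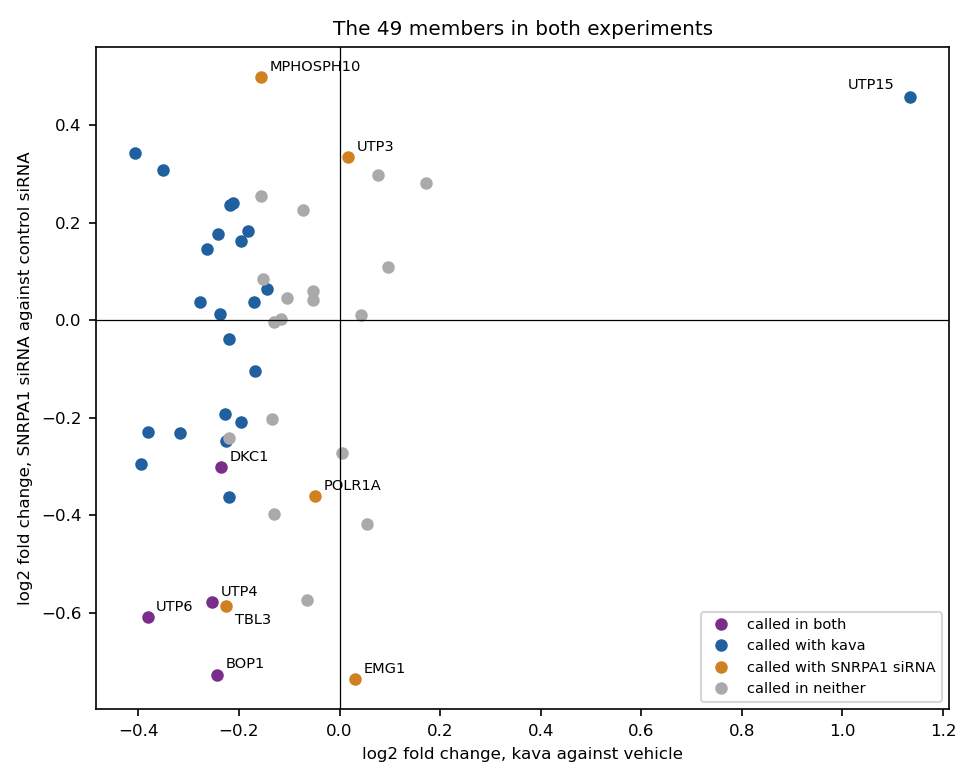
Log2 fold change of the 49 genes with kava against vehicle (x axis) and with SNRPA1 siRNA against control siRNA (y axis), coloured by the comparison in which a gene was called. UTP4, UTP6, DKC1 and BOP1 lie low on both axes, and UTP15 stands alone at the right, at 1.13 and 0.46.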

How the data were processed

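The authors deposited TPM per gene for the vehicle and kava libraries, and a second table of read counts and FPKM per gene for the siRNA libraries, per the file headers. Tools listed in the submitters' processing notes are StringTie 1.3.4d, HISAT2 2.0.4, cutadapt 1.9 and DESeq2, and the build is hg38. The name of the TPM table mentions another quantifier, so its aligner is not settled by the sources used here, and strandedness of counting is not stated. One FPKM column was assigned to SNRPA1 siRNA replicate 3 by its name. FPKM was used for levels only.

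TPM values were tested with limma 3.58.1 (trend) on log2(TPM + 1) for genes averaging 1 TPM or more, which understates changes of low genes. Counts were tested with edgeR 4.0.16 (quasi-likelihood, TMM) in R 4.3.3 for genes averaging 1 CPM or more, and the CPM given are counts over the TMM-scaled library total. For edgeR, SE was computed as |log2 fold change| divided by the square root of F. Tests were two-sided and Benjamini-Hochberg adjusted over all genes tested. Both fits were checked on simulated data with independent libraries and no outlying one. That check therefore does not cover the effects of single libraries seen here. DESeq2 1.42.0 was an alternative. Members, role groups and other lists were chosen with earlier results of these data known. Members named with values are the called ones, up to 12 each way by size of change, and the highest-level member of each role group without one; of every other list, up to 3 called genes are named. UTP15's neighbours, NOP2 and the other not-called members given were chosen after their values were seen. Replicate numbers did not pair libraries (correlations of deviations from -0.38 to 0.093).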

Additional observations from a re-analysis of the deposited data

How the results depend on the processing

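With kava, UTP15 stayed higher in every alternative, and NHP2 joined it without kava replicate 3, so 1 to 2 members were higher when single libraries were left out. The count of lower members was 15 to 24 in those fits, 20 with libraries rescaled, 18 without the trend, 23 with chromosome medians subtracted (chosen after seeing the data) and 16 without a filter on low values. Over all genes, 1626 to 2213 were higher and 1400 to 2099 lower when single libraries were left out. POLR1A, never called, changed sign without vehicle replicate 1 (0.0090), without kava replicate 1 (0.073) and with chromosome medians subtracted (0.022), with a range of -0.16 to 0.073. With SNRPA1 siRNA, leaving out single libraries gave 0 to 10 members higher and 0 to 17 lower, and 0 to 2222 genes higher and 0 to 2324 lower; without control siRNA replicate 2 it was 376 and 684. Library totals gave 0 members and 385 genes higher. No filter on low counts gave 0 and 4 members, and 258 and 411 genes, higher and lower. DESeq2 gave 6 and 11 members, and 1427 and 1768 genes. A replicate block gave 1 member higher and 26 lower with kava, and 0 members and 0 genes either way with SNRPA1 siRNA by edgeR, against 4 members higher and 11 lower at an unadjusted p under 0.05; the numbers share no stated source, and the libraries did not deviate together by number. The cause of these shifts was not tested. Counting error of the TPM values is unknown, and 18 of the 49 genes overlap a coding gene on the opposite strand. UTP4, EMG1, NOP2 and LTV1 overlap a coding gene on the same strand by GENCODE 29, where strand cannot tell reads apart. The part of these overlaps in the results was not tested.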
